A study of Mus musculus with 16 samples.

Results

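The genes described here act late in adrenal steroid synthesis, where androgens are made, sulfated and converted. They were chosen by name: a probe was taken when the array identified it by 1 of 9 listed human RefSeq identifiers, which stand for 8 genes. Of these identifiers 6 were found among the 29094 on the array, namely those of SULT2A1 (NM_003167), STS (NM_000351), CYB5A (NM_001914), POR (NM_000941), AKR1C3 (NM_003739) and SRD5A1 (NM_001047). Each was read by 1 probe. The identifiers of PAPSS2, of a second CYB5A transcript and of CYP19A1 matched no probe and were not analysed here. The symbols come from the list, since the probe annotation used here gives identifiers without gene names.

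The adrenal cortex releases most of its androgen as the sulfate of dehydroepiandrosterone (DHEA). SULT2A1 transfers the sulfate to DHEA from a donor molecule that PAPSS2 makes, and STS removes it again in steroid-converting tissues. DHEA itself is formed by the lyase activity of CYP17A1, which takes its electrons from POR and is favoured by cytochrome b5, the product of CYB5A. AKR1C3 reduces androstenedione to testosterone, SRD5A1 is a steroid 5-alpha-reductase that makes dihydrotestosterone, and CYP19A1 is aromatase, which makes estrogens.

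RNA came from H295R xenografts. H295R is a human line from an adrenocortical carcinoma that still makes steroid hormones, and the SCID host mice have no functional T or B lymphocytes. The mice, labelled male, were treated by mouth for 28 days with mitotane and 9-cisRA together (combined), with mitotane, with 9-cisRA, or, as control, with corn oil. Mitotane is an adrenolytic drug used against adrenocortical carcinoma, and 9-cisRA (9-cis retinoic acid) is a ligand of the retinoid receptors RAR and RXR. GEO lists the organism as mouse, whereas the 1-colour Agilent array is a human design and the line is human. All groups share the xenograft, the host strain and the route, and H295R is a single line. There were 16 samples on 4 slides, 1 array of each group per slide, and the replicate number of an array is also its slide. Scanner data of 15 arrays were tested (combined n = 3, mitotane, 9-cisRA and control n = 4 each), and combined replicate 3 was read only in the deposited value table. The labels do not state that each array came from a separate mouse, so the p-values measure the spread between arrays, part of which may be technical. In a bulk tumour, fewer cells of a type and less RNA per cell cannot be told apart. The tumour label could not be checked against adrenocortical or host cell markers, because no table used here paired the identifiers with gene symbols.

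A level below is the log2 of the processed signal minus the log2 of that array's 75th percentile, so 0 is the 75th percentile and 1 unit is a doubling. Levels of different probes are not on a common scale and are compared only within a gene. Control replicate 4 stands apart: its 75th percentile was an intensity of 224, against 552 to 1061 on the other 14 arrays. Its share of probes well above background was 61.6%, and that of combined replicate 4 was 57.9%, against 69.4% to 75.9% on the other 13 arrays. Results against control are therefore given with and without control replicate 4. Every 9-cisRA array lay at position 4 of its slide, so that position and 9-cisRA treatment cannot be told apart. Control replicates 1 to 3 lay at position 3 and control replicate 4 at position 2. Without control replicate 4, control was thus also confined to a single position, which only mitotane replicate 4 shared.

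SULT2A1, the DHEA sulfotransferase, was well above background on all 15 arrays. Its level was 1.66, 1.15 and 0.58 in combined replicates 1, 2 and 4, and 1.94, 1.69, 1.46 and 1.55 in mitotane replicates 1 to 4. It was 1.68, 1.91, 1.70 and 1.37 in 9-cisRA replicates 1 to 4, and 2.33, 1.65, 1.33 and 0.51 in control replicates 1 to 4. The combined arrays of slides 2 and 4 were below every mitotane and every 9-cisRA array, and that of slide 1 lay among them. The share of all transcripts with this pattern was not counted. Control arrays spread over the whole range, holding both the highest and the lowest of all 15 values. The mean was 1.13 ± 0.54 in combined (SD, n = 3), 1.66 ± 0.21 in mitotane, 1.67 ± 0.22 in 9-cisRA and 1.45 ± 0.75 in control tumours (SD, n = 4 each). The combined mean was thus the lowest, with the control mean next above it, and no neighbours in the order of the means were farther apart than the larger of their SDs.

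**Figure D1:**
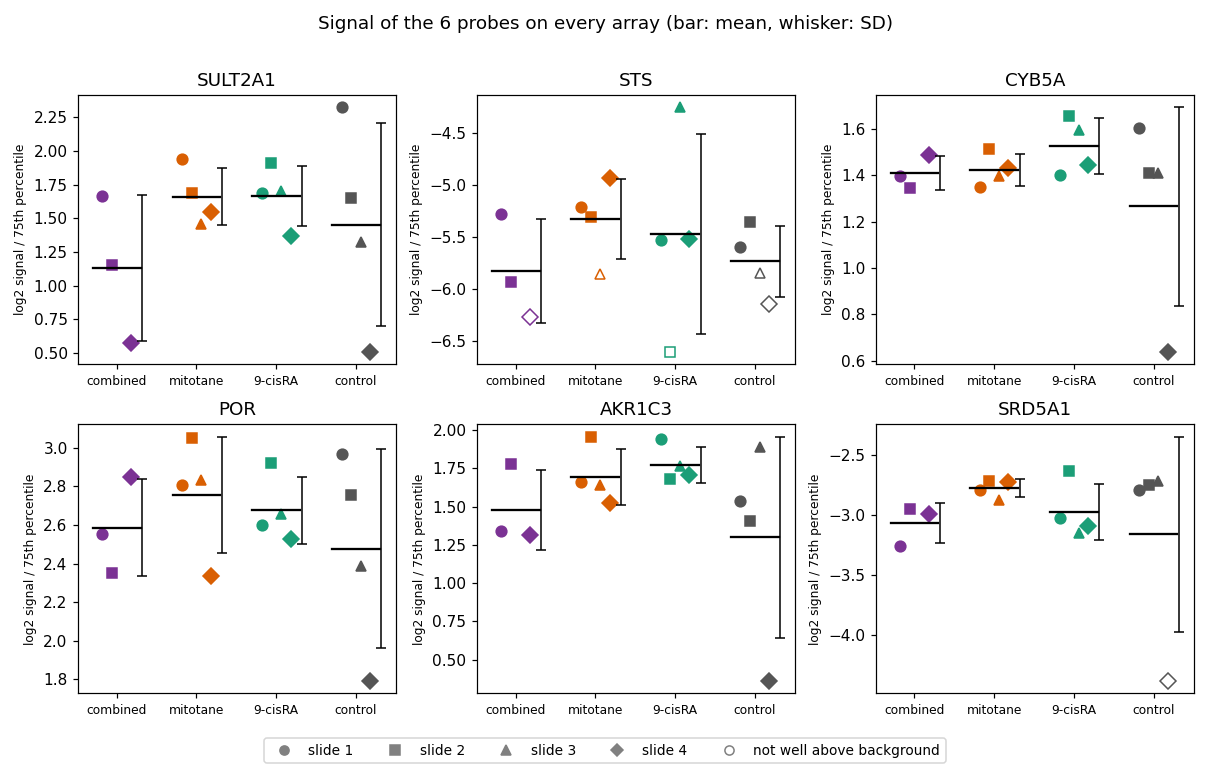
Level of each gene's probe on every array, as log2 of the processed signal over the 75th percentile of the array (y axis, own scale per gene), by treatment group (x axis). Each point is an array and its shape the slide, open points were not well above background, the bar is the group mean and the whisker the SD. Control replicate 4 is the lowest of the 15 points for SULT2A1, CYB5A, POR, AKR1C3 and SRD5A1.

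The log2 difference of SULT2A1 between combined and mitotane tumours was -0.53 (SE 0.34, 95% interval -1.27 to 0.21), a 1.44-fold lower estimate. Against 9-cisRA the difference was -0.54 (SE 0.34, interval -1.27 to 0.20), and against control -0.32 (SE 0.34, interval -1.06 to 0.41). None of these passed limma's test across 20218 transcripts, with adjusted p = 1.00 against mitotane, 0.720 against 9-cisRA and 0.675 against control. Without control replicate 4 the difference between combined and control was -0.64 (SE 0.28, limma adjusted p = 0.250). For the single agents the estimates against control were 0.21 for mitotane and 0.21 for 9-cisRA, and they turned to -0.11 and -0.10 without control replicate 4. The difference between combined and control also moved with other arrays: it was -0.045 without combined replicate 4, -0.032 without control replicate 1 and -0.59 without combined replicate 1. Within slides it was -0.66, -0.50 and 0.07 on slides 1, 2 and 4, so combined was the lower on 2 of 3 slides.

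Within slides, SULT2A1 was lower in combined than in mitotane tumours on 3 of 3 slides, with differences of -0.28, -0.54 and -0.97 on slides 1, 2 and 4. It was also lower than in 9-cisRA tumours on 3 of 3 slides, although the difference on slide 1 was only -0.02. The share of all transcripts that were lower on every slide was not counted. The largest difference from mitotane fell on slide 4, whose combined array had the low share of probes above background. The local background at its SULT2A1 spot was an intensity of 51, against 21.5 to 27 on the other arrays, beside a median signal of 998 at the spot. Without combined replicate 4 the difference from mitotane was -0.25 and that from 9-cisRA was -0.26, and without combined replicate 1 they were -0.80 and -0.80. In a fit that weights each array they were -0.24 and -0.12. The part of array quality in the difference was not tested.

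The deposited value table adds combined replicate 3. Its entries are log2 values centred on each probe, so that 0 is near the probe's median over 16 arrays. SULT2A1 read 0.05, -0.45, -0.76 and -1.03 in combined replicates 1 to 4, and 0.36, 0.10, -0.16 and -0.05 in mitotane replicates 1 to 4. The 9-cisRA replicates read 0.12, 0.35, 0.12 and -0.22, and the control replicates 0.76, 0.07, -0.25 and -1.16. Combined replicate 3 thus joined replicates 2 and 4, and 3 of 4 combined arrays were below all 4 mitotane and all 4 9-cisRA arrays. How many of all transcripts showed this pattern was not counted. The difference of combined from mitotane was -0.61 (SE 0.32) and that from 9-cisRA -0.64 (SE 0.32), with limma adjusted p = 1.00 and 0.550. Without control replicate 4, which takes no part in these differences but widens the shared spread, the SE was 0.24 for each and the limma adjusted p was 0.339 and 0.149. The difference of combined from control was -0.40 (SE 0.32, limma adjusted p = 0.564). It was -0.74 (SE 0.26, limma adjusted p = 0.131) without control replicate 4.

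**Figure D2:**
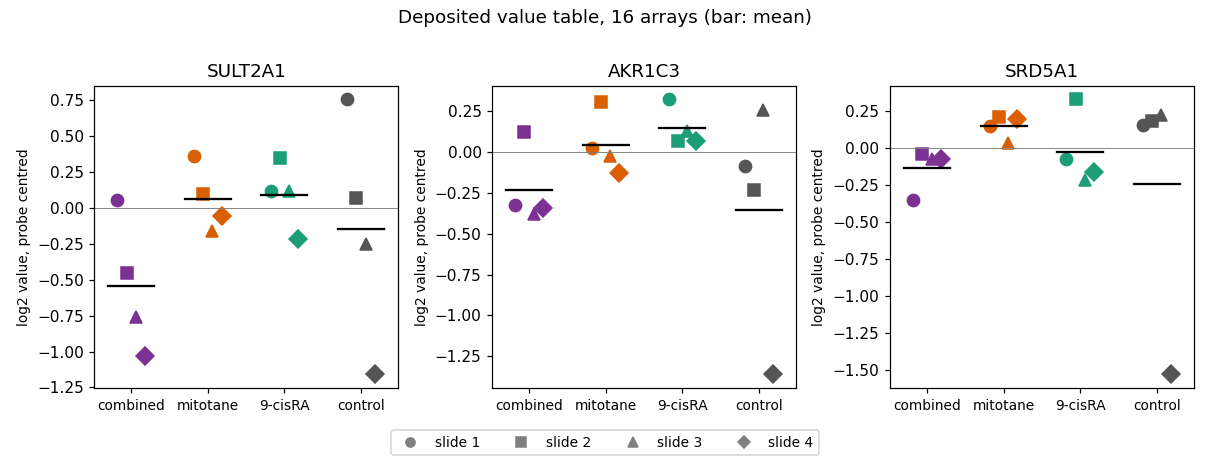
Deposited log2 value, centred on the probe (y axis), of SULT2A1, AKR1C3 and SRD5A1 on all 16 arrays by group (x axis), with combined replicate 3 as the triangle of the combined group. Each point is an array, its shape the slide, and the bar the group mean. For SULT2A1, 3 of 4 combined points are below every mitotane and every 9-cisRA point, and for SRD5A1 all 4 combined points are below the 4 mitotane points. The share of all transcripts with the SULT2A1 pattern was not counted, and 2.7% had the SRD5A1 pattern.

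STS, the steroid sulfatase that opposes SULT2A1, was near the lower limit of the array. Its probe was well above background on 2 of 3 combined, 3 of 4 mitotane, 3 of 4 9-cisRA and 2 of 4 control arrays. It therefore failed the filter, which asked for every array of at least 1 group, and it was not tested. Its level was -5.28, -5.93 and -6.26 in combined replicates 1, 2 and 4, and -5.21, -5.31, -5.85 and -4.93 in the mitotane replicates. The 9-cisRA replicates had -5.52, -6.60, -4.25 and -5.52, and the control replicates -5.59, -5.35, -5.85 and -6.14. All groups overlapped, and the 9-cisRA group held both the highest and the lowest value. The processed signal was an intensity of 3.18 to 42.3 beside local backgrounds of 21 to 28. Without the filter, the log2 difference of mitotane from control was 0.41 (95% interval -0.47 to 1.28). That of combined from mitotane was -0.50 (interval -1.44 to 0.45), and every such interval for STS spanned 0.

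CYB5A and POR, the electron partners of CYP17A1, were well above background on every array. CYB5A had 1.40, 1.34 and 1.49 in combined replicates 1, 2 and 4, and 1.35, 1.51, 1.40 and 1.43 in the mitotane replicates. It had 1.40, 1.66, 1.60 and 1.45 in the 9-cisRA replicates, and 1.61, 1.41, 1.41 and 0.64 in the control replicates. All groups overlapped, and control replicate 4 was the only array outside 1.34 to 1.66. Over those 14 arrays CYB5A, the mean of 10 spots per array, varied 1.24-fold. SULT2A1, read from 1 spot per array, varied 3.36-fold, so the 2 ranges are not like measures. The mean was 1.41 ± 0.07 in combined (SD, n = 3), 1.42 ± 0.07 in mitotane, 1.53 ± 0.12 in 9-cisRA and 1.27 ± 0.43 in control tumours (SD, n = 4 each). The 9-cisRA mean was the highest and the control mean the lowest, and neighbours in that order again lay within the larger of their SDs.

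The CYB5A probe is printed 10 times on each array, which measures how well an array reads 1 sequence. The SD between the copies was 0.03 to 0.10 on the 14 arrays, so the mean of an array had a standard error of 0.00956 to 0.0301. Array means differed with an SD of 0.0984, more than that error. The copies show the spotting and scanning error within an array and not the error between tumours or labelling reactions. On control replicate 4 the 10 copies lay between 0.55 and 0.90 with an SD of 0.10, all below every copy on the other arrays, of which the lowest was 1.11 on combined replicate 2.

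**Figure D3:**
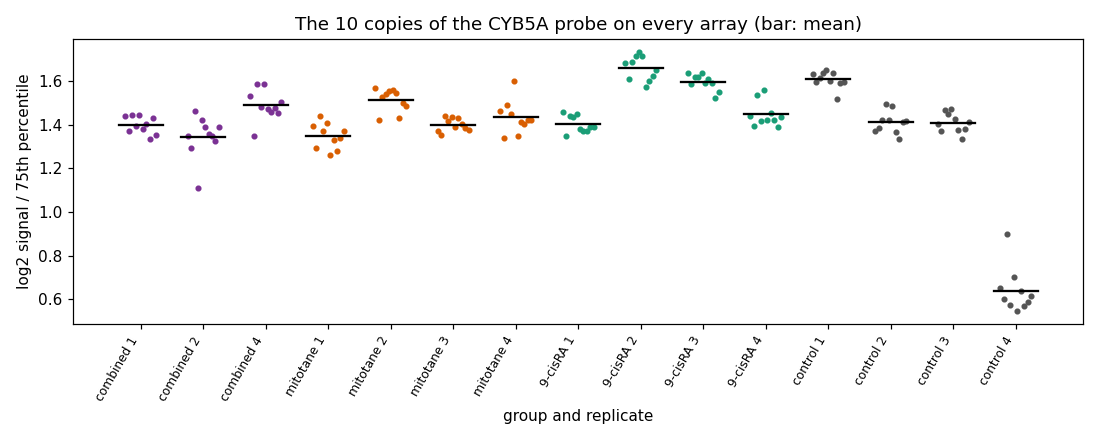
Level of each of the 10 copies of the CYB5A probe (points) on each of the 15 arrays (x axis, group and replicate), as log2 of the processed signal over the 75th percentile (y axis), with the array mean as a bar. The copies of control replicate 4 lie between 0.55 and 0.90, and the means of the other 14 arrays between 1.34 and 1.66.

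CYB5A was 0.14 above control in combined tumours (SE 0.19), 0.16 above in mitotane tumours (SE 0.18) and 0.26 above in 9-cisRA tumours (SE 0.18), with limma adjusted p = 0.734, 0.758 and 0.744. These became -0.06, -0.05 and 0.05 without control replicate 4, each with an SE of 0.10 to 0.11. Between combined and mitotane the difference was -0.01 (95% interval -0.42 to 0.40), and between combined and 9-cisRA -0.12 (interval -0.53 to 0.30). The intervals without control replicate 4 are narrower, since the SE of both differences was then 0.10.

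POR, the reductase that feeds electrons to all microsomal cytochromes P450, had 2.56, 2.35 and 2.85 in combined replicates 1, 2 and 4, and 2.81, 3.05, 2.83 and 2.34 in the mitotane replicates. It had 2.60, 2.92, 2.66 and 2.53 in the 9-cisRA replicates, and 2.97, 2.76, 2.39 and 1.79 in the control replicates. All groups overlapped, and control replicate 4 was again lowest. Its mean was 2.59 ± 0.25 in combined (SD, n = 3), 2.76 ± 0.30 in mitotane, 2.68 ± 0.17 in 9-cisRA and 2.48 ± 0.52 in control tumours (SD, n = 4 each), with mitotane highest, control lowest and neighbours within the larger of their SDs. Against control, POR was 0.11 higher in combined (SE 0.25), 0.28 higher in mitotane and 0.20 higher in 9-cisRA tumours (SE 0.24 each), with limma adjusted p = 0.848, 0.720 and 0.755. The values were -0.12, 0.05 and -0.03 without control replicate 4. Combined minus mitotane was -0.17 (95% interval -0.72 to 0.37) and combined minus 9-cisRA was -0.09 (interval -0.64 to 0.45), with limma adjusted p = 1.00 for each after rounding.

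AKR1C3, which makes testosterone from androstenedione, had 1.34, 1.78 and 1.32 in combined replicates 1, 2 and 4, and 1.66, 1.95, 1.64 and 1.52 in the mitotane replicates. It had 1.94, 1.68, 1.77 and 1.71 in the 9-cisRA replicates, and 1.54, 1.40, 1.89 and 0.36 in the control replicates. The combined arrays of slides 1 and 4 were below every array of either single agent, and that of slide 2 was among them. How common this pattern was among all transcripts was not counted. Means were 1.48 ± 0.26 in combined (SD, n = 3), 1.69 ± 0.18 in mitotane, 1.77 ± 0.12 in 9-cisRA and 1.30 ± 0.66 in control tumours (SD, n = 4 each). In the order control, combined, mitotane, 9-cisRA, from low to high, neighbours were no farther apart than the larger of their SDs. Probes of the AKR1C family can share sequence, and how far this probe reads other members was not tested.

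The AKR1C3 difference from control was 0.18 in combined (SE 0.28), 0.40 in mitotane and 0.48 in 9-cisRA tumours (SE 0.26 each), with limma adjusted p = 0.769, 0.713 and 0.744. Leaving out control replicate 4, they were -0.13, 0.08 and 0.16, so that the combined difference changed sign and the others moved towards 0. Combined minus mitotane was -0.22 (95% interval -0.81 to 0.38), with a lower combined value on 3 of 3 slides. Combined minus 9-cisRA was -0.30 (interval -0.89 to 0.30), with a lower combined value on 2 of 3 slides. The shares of all transcripts with such slide counts were not counted. In the value table combined replicates 1 to 4 read -0.33, 0.12, -0.38 and -0.34, so replicate 3 lay with replicates 1 and 4, and mitotane replicates read 0.03, 0.31, -0.03 and -0.13. There the 9-cisRA replicates read 0.32, 0.07, 0.13 and 0.07, and combined minus 9-cisRA was -0.38, with limma adjusted p = 0.700 over 16 arrays and 0.149 without control replicate 4.

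SRD5A1, the 5-alpha-reductase, was dim but well above background on every array except control replicate 4. Its level was -3.26, -2.95 and -2.99 in combined replicates 1, 2 and 4, and -2.79, -2.72, -2.87 and -2.72 in the mitotane replicates. It was -3.03, -2.63, -3.15 and -3.09 in the 9-cisRA replicates, and -2.79, -2.75, -2.72 and -4.38 in the control replicates. All 3 combined arrays were below all 4 mitotane arrays and below control replicates 1 to 3. Groups that do not overlap, with combined the lower, were found for 4.5% of the 20218 transcripts between combined and mitotane. For 8.87% of transcripts all 3 combined arrays were below control replicates 1 to 3. Means were -3.07 ± 0.17 in combined (SD, n = 3), -2.77 ± 0.07 in mitotane, -2.98 ± 0.24 in 9-cisRA and -3.16 ± 0.81 in control tumours (SD, n = 4 each), with mitotane highest and control lowest and neighbours within the larger of their SDs. The control mean rests on 1 array that did not measure the probe above background, and without it the control mean was -2.75 ± 0.04 (SD, n = 3).

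Combined minus mitotane was -0.29 for SRD5A1 (SE 0.32, 95% interval -0.98 to 0.40, limma adjusted p = 1.00), and on slides 1, 2 and 4 it was -0.47, -0.24 and -0.27. The large SE comes with control replicate 4, which enters the shared spread; without it the SE was 0.13 and the limma adjusted p was 0.411. In the value table the combined replicates read -0.35, -0.04, -0.07 and -0.07, and the mitotane replicates 0.15, 0.21, 0.04 and 0.20. All 4 combined arrays were below all 4 mitotane arrays there, as was so for 2.7% of transcripts. The difference from control was 0.09 in combined, 0.39 in mitotane and 0.19 in 9-cisRA tumours, with limma adjusted p = 0.896, 0.713 and 0.802. Without control replicate 4 it was -0.31 (SE 0.14, limma adjusted p = 0.255) in combined, -0.02 in mitotane and -0.22 in 9-cisRA tumours.

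In a fit in which limma weights each array, SRD5A1 passed the test between combined and control tumours, with a difference of -0.39 and adjusted p = 0.0102. That fit called 28.6% of the 20218 transcripts in this comparison, against 0 in the unweighted one. It gave control replicate 2 a weight of 8.80 and control replicate 4 a weight of 0.0351, so a single control array carried most of the control group. Over the 4 groups SRD5A1 likewise passed the weighted fit with limma adjusted p = 0.0354, where 19.2% of transcripts did. No other tested gene passed under any setting run, and STS was not tested.

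**Figure D4:**
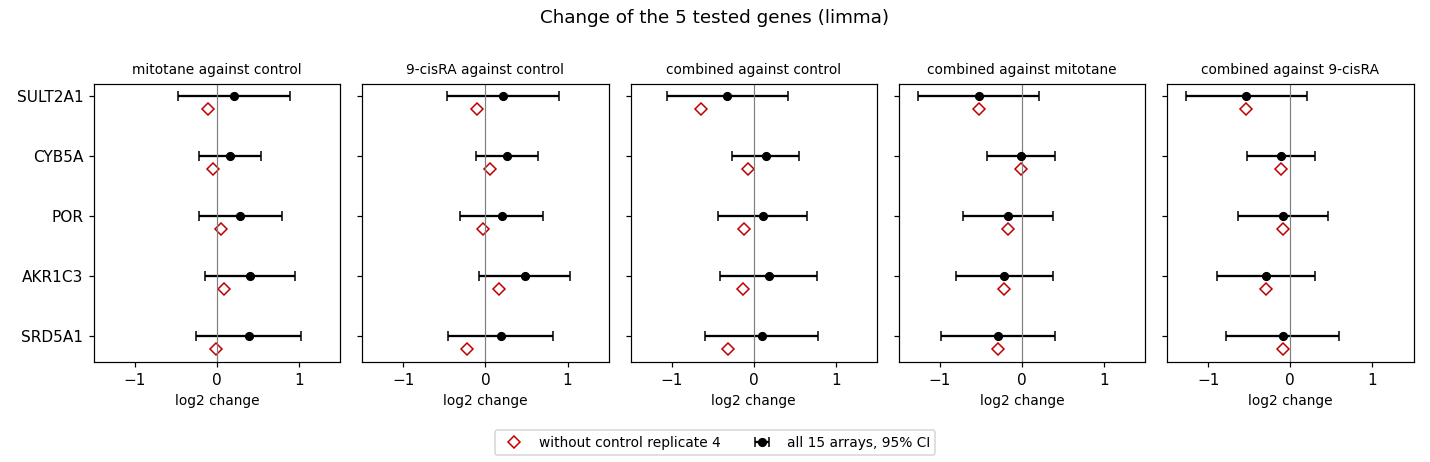
Log2 change of the 5 tested genes (rows) in the 5 comparisons (panels), from limma. Black points with bars are the estimates from all 15 arrays with their 95% intervals, and red diamonds the estimates without control replicate 4. Every black interval spans 0. In the 3 comparisons with control the diamonds lie left of the points, and in the other 2 they coincide with them.

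By comparison, 0 of the 5 tested genes passed, and so did 0 of all 20218 transcripts (0%) in each of the 5 comparisons by limma at an adjusted p of 0.05. At an unadjusted p under 0.05 the share of all transcripts was 13.8% for combined, 6.04% for mitotane and 3.51% for 9-cisRA, each against control. It was 4.75% for combined against mitotane and 9.47% for combined against 9-cisRA. Over the 4 groups limma's F-test gave adjusted p values from 0.795 for AKR1C3 to 0.888 for POR, with 0 of all transcripts passing and 8.1% at an unadjusted p under 0.05.

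All 5 tested genes were above 0 in mitotane against control, as were 61.5% of all transcripts, with a median of 0.28 over the 5 and 0.09 over all. All 5 were above 0 in 9-cisRA against control, beside 53.9% of all transcripts, with medians of 0.21 and 0.03. In combined against control 4 of 5 were above 0, beside 58.7% of all, with medians of 0.11 and 0.09. Without control replicate 4 the counts above 0 were 2 of 5 for mitotane, 2 of 5 for 9-cisRA and 0 of 5 for combined, against 64.4%, 53.6% and 60.9% of all transcripts. The medians of the 5 were then -0.02, -0.03 and -0.13, and those of all transcripts 0.08, 0.02 and 0.08.

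Against the single agents, all 5 tested genes were below 0 in combined tumours. The median was -0.22 against mitotane, where it was 0.01 over all transcripts and 48% of them were below 0. Against 9-cisRA the median was -0.12, beside 0.06 over all transcripts, of which 40.6% were below 0. The 2 comparisons share the combined arrays, and the sizes ran from -0.01 for CYB5A to -0.53 for SULT2A1 against mitotane and from -0.09 for POR and SRD5A1 to -0.54 for SULT2A1 against 9-cisRA. With all 15 arrays in the fit, each of these 10 differences was smaller than 2 of its SEs. Without control replicate 4 the SE was 0.26 for both SULT2A1 differences and 0.13 for SRD5A1 against mitotane, and these 3 were then over 2 SEs from 0. None of the 3 passed limma's test there, with adjusted p = 0.460 for SULT2A1 against mitotane, 0.282 for SULT2A1 against 9-cisRA and 0.411 for SRD5A1 against mitotane. In that fit 11.5% of all transcripts had an unadjusted limma p under 0.05 for combined against mitotane, and 19% for combined against 9-cisRA.

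Control replicate 4 was the lowest of all 15 arrays for each of the 5 tested genes, as it was for 43.4% of all transcripts. Its log2 difference from the mean of the other controls was -1.26 for SULT2A1, -0.84 for CYB5A, -0.92 for POR and -1.25 for AKR1C3. SRD5A1 was not well above background on that array, and its measured difference of -1.63 is uncertain. With the array's lowest signal among probes well above background in its place, the difference was -1.30, a substitute and not a strict bound. The median over all tested transcripts was -0.32, and over the brightest 25% of them -0.52. With SRD5A1 at either value, the 5 genes were further below the other controls on that array than the median transcript was, on a scale already set by its 75th percentile. The part of array quality in these values was not tested.

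The levels of the genes were only loosely related across arrays. Over the 14 arrays without control replicate 4, Spearman's rho was 0.53 between CYB5A and POR and 0.52 between SULT2A1 and POR. It was -0.0022 between CYB5A and AKR1C3, 0.10 between SULT2A1 and AKR1C3 and 0.18 between SULT2A1 and SRD5A1. With control replicate 4 included, Pearson's r between CYB5A and AKR1C3 was 0.78, against 0.0014 without it. These are descriptions over arrays that share treatments, slides and the scaling of each array. By the same measure, the identifiers with the levels most like SULT2A1 among 20213 other transcripts were NM_001002880, with rho of 0.91, and NM_000774, with rho of 0.90, over 14 arrays. The closest match had rho of 0.97 for CYB5A, 0.95 for POR, 0.94 for SRD5A1 and 0.85 for AKR1C3. Such values are the top of a large search over few arrays, and they were not tested against chance.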

How the data were processed

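The authors deposited Agilent Feature Extraction output for 15 arrays, with 1 intensity per spot, background-subtracted within the array per the file headers (software version 11.0.1.1 in those headers and 11.0.1 per the submitters' processing notes). They also deposited a table of log2 values for 16 arrays, whose making no source used here describes. Its differences between arrays followed the scanner values with r = 1.00 after rounding, and its probes are centred; the exact scaling is unknown.

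Each processed signal was put on the log2 scale relative to the 75th percentile of its array, taken over 43118 spots that are no controls. Outlier spots were left out, and repeat spots were averaged. The brightest probe stood for each identifier. The test took the 20218 transcripts that some group showed well above background on all of its arrays. The 4 groups entered 1 fit in limma 3.58.1 (R 4.3.3), two-sided, with Benjamini-Hochberg adjustment over all transcripts at 0.05. Python 3.11.15 and the R package data.table (version 1.17.8) handled the input, and matplotlib 3.10.9 the plots. The fit was tested on simulated data. Precision is limited by the number of arrays.

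The replicate number is the slide in the sample titles, and each slide held 1 array of each group. Deviations from group means correlated between arrays of 1 slide at -0.27 to 0.37 over 21 pairs (median 0.01), against a median of -0.02 over 63 pairs on different slides. Slide as a block is given as an alternative.

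The genes and lists were chosen with earlier results of these data known. The rule for named genes took every listed identifier found, and the 2 transcripts most like SULT2A1. Lists of other steroid pathway genes and of cell type markers were not used, because 0 of 29094 identifiers matched the gene table at hand, a mouse one. Alternatives were normexp background correction, quantile normalization, no filter on dim probes, slide as block, the value table, only the groups compared, array weights, the mean over probes, and leaving out arrays. Normexp was run on the median signal, with an offset of 50, since no mean signal column was at hand. On 4 arrays, 6 to 10 spots with an extreme local background were given the array's median background.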

Additional observations from a re-analysis of the deposited data

Results flagged for a closer look

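Samples far from the others of their group were sought in 36 sets of 4 arrays by Dixon's test, which chance meets in about 1 in 20 sets, and 6 were found. The scanner values of the combined group, with n = 3, were not screened. SRD5A1 had a level of -4.38 on control replicate 4, where its probe was not well above background, against -2.79 to -2.72 on the other controls. In the value table, AKR1C3 read 0.12 on combined replicate 2, against -0.38 to -0.33 on the other combined arrays. SRD5A1 read -0.35 there on combined replicate 1, against -0.07 to -0.04. Control replicate 4 had 511 outlier spots, against 281 to 313 on the other controls. In each group the array of slide 4 had the most, with 589 in combined, 445 in mitotane and 340 in 9-cisRA. The SD of log2 signal among copies of the same probe had a median of 0.117 on control replicate 4, against 0.0724 to 0.0753 on the other controls. The same measure was 0.0772 on 9-cisRA replicate 3, against 0.0752 to 0.0753 on the other 9-cisRA arrays, a small difference in absolute terms. On combined replicate 4, which was not screened, it was 0.0932.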

How the results depend on the processing

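Of 25 gene comparisons, 12 kept their sign under every alternative and 13 changed it under at least 1, of which 10 involve control and changed without control replicate 4. The range over leaving out each array in turn was, for mitotane against control, -0.11 to 0.50 for SULT2A1, -0.052 to 0.27 for CYB5A and -0.020 to 0.53 for SRD5A1. For 9-cisRA against control it was -0.10 to 0.50 for SULT2A1, -0.030 to 0.36 for POR and -0.22 to 0.33 for SRD5A1. For combined against control it was -0.065 to 0.26 for CYB5A, -0.12 to 0.27 for POR, -0.13 to 0.38 for AKR1C3 and -0.31 to 0.24 for SRD5A1. It was -0.052 to 0.020 for CYB5A in combined against mitotane, and -0.22 to 0.027 for POR and -0.15 to 0.024 for SRD5A1 in combined against 9-cisRA. Comparisons that kept their sign also moved: leaving out each array gave, against control, -0.64 to -0.032 for SULT2A1 in combined, 0.052 to 0.44 for POR and 0.083 to 0.59 for AKR1C3 in mitotane, and 0.050 to 0.37 for CYB5A and 0.16 to 0.67 for AKR1C3 in 9-cisRA tumours. In combined against mitotane it gave -0.80 to -0.25 for SULT2A1, -0.31 to -0.054 for POR (lowest in size without combined replicate 2), -0.37 to -0.13 for AKR1C3 and -0.35 to -0.20 for SRD5A1, which normexp put at -0.14. In combined against 9-cisRA it gave -0.80 to -0.26 for SULT2A1, -0.16 to -0.071 for CYB5A and -0.45 to -0.22 for AKR1C3. Array weights gave -0.12 for SULT2A1 in combined against 9-cisRA and -0.24 against mitotane. With slide as a replicate block CYB5A turned to 0.0078 in combined against mitotane, and the block changed no other sign and no call. With the replicate block and without control replicate 4, mitotane against control was -0.0075 for SULT2A1, -0.053 for CYB5A and -0.025 for SRD5A1, 9-cisRA against control -0.00099 for SULT2A1 and -0.23 for SRD5A1, and combined against control -0.069 for CYB5A, -0.11 for POR, -0.056 for AKR1C3 and -0.34 for SRD5A1. In the value table without that array, mitotane against control was -0.13 for SULT2A1, -0.072 for CYB5A and -0.041 for SRD5A1, and 9-cisRA against control -0.099 for SULT2A1, -0.027 for POR and -0.22 for SRD5A1. Combined against control was there -0.10 for CYB5A, -0.11 for POR, -0.21 for AKR1C3 and -0.32 for SRD5A1. With array weights, mitotane against control was -0.019 for SULT2A1, -0.012 for CYB5A and -0.018 for SRD5A1, 9-cisRA against control -0.14 for SULT2A1, -0.13 for POR and -0.26 for SRD5A1, and combined against control -0.045 for CYB5A, -0.24 for POR and -0.39 for SRD5A1. Leaving out control replicate 4 and combined replicate 4 together, a choice made after seeing the data, the single agents against control had the values without control replicate 4, namely -0.11 and -0.10 for SULT2A1, -0.052 for CYB5A under mitotane, -0.030 for POR under 9-cisRA and -0.020 and -0.22 for SRD5A1. Combined against control was then -0.10 for CYB5A, -0.25 for POR, -0.052 for AKR1C3 and -0.35 for SRD5A1. With normexp, SRD5A1 against control was -0.050 in mitotane, -0.14 in 9-cisRA and -0.19 in combined tumours. The cause of these changes was not tested beyond the arrays left out.

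Counts of transcripts passing limma's test were 0 in all but these cases. Against control, array weights gave 5787 for combined, 3 for mitotane and 4 for 9-cisRA; they gave 103 for combined against mitotane, 1998 for combined against 9-cisRA and 3886 over the 4 groups, where SRD5A1 had adjusted p = 0.0354. The value table without control replicate 4 gave 1 for combined against mitotane. Leaving out each array in turn gave 0 to 1 in that comparison, the 1 without mitotane replicate 2. The counts at an unadjusted p under 0.05 with all arrays were 2787, 1221, 710, 960, 1915 and 1638 in the same order. With 3 or 4 arrays a group, the 95% intervals of SULT2A1 reach more than 0.6 on the log2 scale to either side. STS was too dim to pass the filter and was not tested.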
